A study of Mus musculus with 12 samples.

Results

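The genes described here are 59 genes that lie on mouse chromosome 7 on both sides of the β-globin locus, the globin genes themselves left out. They were taken from a list of 60 genes placed within about 10 Mb of Hbb-bs, an adult β-globin gene. The list had been drawn up with the genotype differences of these same libraries in view, and Paaf1 was not analysed here. The deposited table held 24453 genes in all, of which 406 were placed within 10 Mb of Hbb-bs. A gene was tested where its level reached 1 FPKM in at least 3 libraries, and 47 of the 59 genes and 9650 of all genes met that limit. FPKM is the number of reads per kilobase of exon, scaled to the sequenced total of the library, so levels can be set against each other between genes. Since the list used the difference between genotypes, every genotype value below is a description and carries no test. The response to treatment was tested. The list was drawn up with earlier results of these data known, and the PBS libraries enter both the genotype difference and the response. The choice of genes may thus not be independent of that response.

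Polyadenylated RNA was sequenced from proerythroblasts (Pro-E), the earliest stage of terminal erythropoiesis, sorted from bone marrow. The donors were WT mice and mice homozygous for the Hbb th1 allele (Hbb th1/th1), called β-thalassemic. Either genotype received PBS or human apotransferrin (apoTf), the iron-free form of the plasma iron carrier. This gave 4 groups of 3 libraries: WT given PBS, WT given apoTf, β-thalassemic given PBS and β-thalassemic given apoTf. ApoTf was injected into the peritoneum at 10 mg, or 400 mg/kg per day, for 20 days, PBS was given in an equal volume, and marrow was taken 3 days after the last injection. By their labels all mice were C57BL6 and 5 months old, whereas the methods describe a mixed background and younger mice. A bleed of 0.4 mL also stands in the labels of all 12 libraries, and it is unclear if the mice sequenced had it. Each library came from several mice pooled, and p-values measure the spread between these pools.

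Red cell precursors make adult β-globin from a cluster of genes on chromosome 7 that sits inside a large block of olfactory receptor genes. The th1 allele is a spontaneous deletion of an adult β-globin gene that arose in the DBA/2J strain and was later bred onto C57BL/6. A chromosome that is selected by breeding carries along sequence of the donor strain around the selected allele, and genes in that stretch can differ in sequence, copy or level for reasons apart from the selected gene. Which alleles the mice of this study carried at the flanking genes was not tested. Reads were aligned to the C57BL/6J reference, only unique alignments were kept, and exons were counted on both strands. A gene that differs in sequence from the reference, or overlaps another, is measured less surely.

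The promoters of 4 genes are shown because Stard10 and Neu3 had the lowest and the highest log2 genotype difference of the tested genes of the list with 0.5 FPKM added to each value, and because Trim12a and Trim12c are close relatives whose levels lay in opposite directions. Each run is 300 bases long, from 250 bases before to 50 bases after the annotated start, and comes from RefSeq on GRCm38.p6. Entries were found for 51 of the 59 genes and were missing for Arhgef17, Arrb1, Gdpd5, Gab2, Map6, St5, Rsf1 and Wee1. Capitals mark matches on either strand to 3 motifs. These are AGATAA, the sequence of GATA factors (TTATCT when reversed and complemented), CACCC, the sequence of KLF factors (likewise GGGTG), and the CCAAT box (likewise ATTGG). The window of Stard10 is chr7:101316836-101317135 on the plus strand. On the minus strand are those of Neu3 (chr7:99828368-99828667), Trim12a (chr7:104315446-104315745) and Trim12c (chr7:104353300-104353599).
Stard10: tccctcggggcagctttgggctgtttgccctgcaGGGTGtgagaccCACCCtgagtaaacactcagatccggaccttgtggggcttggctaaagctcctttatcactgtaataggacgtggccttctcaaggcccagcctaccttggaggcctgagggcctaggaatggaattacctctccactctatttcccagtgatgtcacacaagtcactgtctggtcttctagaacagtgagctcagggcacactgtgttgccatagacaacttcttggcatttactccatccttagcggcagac
Neu3: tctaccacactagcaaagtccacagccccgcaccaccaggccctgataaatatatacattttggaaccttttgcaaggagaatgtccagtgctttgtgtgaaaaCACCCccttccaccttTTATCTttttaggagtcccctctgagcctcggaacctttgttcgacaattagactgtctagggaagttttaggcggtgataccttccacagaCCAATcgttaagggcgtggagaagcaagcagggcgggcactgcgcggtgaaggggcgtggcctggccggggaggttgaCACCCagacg
Trim12a: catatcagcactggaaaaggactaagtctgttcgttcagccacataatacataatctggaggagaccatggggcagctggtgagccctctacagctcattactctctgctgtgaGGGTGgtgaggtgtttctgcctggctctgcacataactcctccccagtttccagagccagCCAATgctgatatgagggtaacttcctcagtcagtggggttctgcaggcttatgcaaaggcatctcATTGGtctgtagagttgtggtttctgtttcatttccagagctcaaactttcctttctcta
Trim12c: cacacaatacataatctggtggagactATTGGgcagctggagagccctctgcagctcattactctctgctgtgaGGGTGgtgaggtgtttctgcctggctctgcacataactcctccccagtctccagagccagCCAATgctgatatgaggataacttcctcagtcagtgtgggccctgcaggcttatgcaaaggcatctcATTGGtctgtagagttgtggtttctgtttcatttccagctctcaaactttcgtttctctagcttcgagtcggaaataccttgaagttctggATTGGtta
The windows of Trim12a and Trim12c were identical at 248 of 340 aligned columns (72.9%), and both carry a CACCC match and CCAAT matches. AGATAA was found in 3 of the 70 promoter windows of the genes (4.29%) and in 11.2% of all 32851 promoters of the same length. CACCC was found in 49 windows (70%) against 57.5% of all, and CCAAT in 27 (38.6%) against 37.4% of all. A CACCC match can share letters with a CCAAT match that adjoins it, and a match is a description of these letters only.

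Before the genes are described, the libraries were checked. The depth worked out from the smallest steps of the FPKM values was 33400000 to 51500000 reads per library, so that 1 read per kilobase of exon was worth 0.0194 to 0.03 FPKM. WT replicate 1 given PBS, the shallowest library, stood apart. Its median Spearman correlation across genes with the other libraries was 0.867, against 0.982 to 0.99 for the other 11. It held 31177 FPKM of the ribosomal transcript Rn45s, against 1609 to 6116 in the others. The main counts between genotypes are therefore given with and without it, and so are many of the differences it moves. Hbb-bs was listed at 714, 1763 and 1784 FPKM in WT given PBS, 1091, 3229 and 2154 in WT given apoTf. It was listed at 131, 172 and 147 in β-thalassemic given PBS and 95.8, 175 and 201 in β-thalassemic given apoTf. The genotypes here are those in the titles of the libraries, since the genotype tags of the labels give the opposite for every library. Erythroid markers summed to 1414 to 2111 FPKM, and the T cell genes Cd3e and Cd3g were at 0 in every library. Neutrophil and monocyte markers summed to between 0.892 and 11.3 FPKM in β-thalassemic libraries and to between 2.32 and 48 FPKM in WT. In sorted bulk samples, fewer cells of a type and less RNA per cell cannot be told apart.

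Stard10, Trim12a, Mrpl48 and St5 were lower in all 6 β-thalassemic libraries than in any of the 6 WT libraries, and Neu3, Pold3, Rab6a and Trim12c were higher in all 6. These 8 of the 47 tested genes (17.0%) had genotypes that did not overlap, beside 36 of all 9650 genes (0.373%). The higher direction held 4 of the 47 (0.218% of all genes) and the lower direction 4 (0.155% of all). Without WT replicate 1 given PBS, 15 of the 47 did not overlap, beside 0.933% of all genes. Of these 6 were higher (0.29% of all) and 9 lower (0.642% of all), and the 7 genes added were Fam168a, Relt, Rnf169, C2cd3, Stim1, Pgap2 and Trim34a. Trim12a and Trim34a reached 1 FPKM in no β-thalassemic library and Lipt2 in 1, so these genes met the limit for testing through WT libraries. Trim12a is counted among the 8 and Trim34a among the 15. Gab2 was at 1 FPKM or more in every β-thalassemic library but had a median of 0.79 FPKM in WT libraries. It thus met the limit through β-thalassemic libraries. Since the list was chosen on this difference, nothing is read from these shares. A log2 difference of at least 0.5 in either direction between genotypes, on log2(FPKM + 0.5), was seen for 12 of the 47 genes (25.5%), Trim12a, Trim34a and Gab2 among them. It was seen for 2 of the other 47 tested genes within 10 Mb, which were the globin genes Hbb-bs and Hbb-bt, and for 184 of all 9650 genes (1.91%). Without WT replicate 1 given PBS it was seen for 13 of the 47 genes (27.7%), with Lipt2 now and Trim12a, Trim34a and Gab2 still among them. It was then seen for 1 of the other 47, Hbb-bs, and for 146 of all 9650 genes (1.51%). The median difference of the 47 genes was 0.04, with 28 above 0 and 19 below. Over all genes it was 0.05, with 6096 above and 3554 below. Without WT replicate 1 given PBS the median of the 47 genes was -0.01, with 20 above and 27 below. Over all genes it was then -0.02, with 3937 above and 5713 below.

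**Figure D1:**
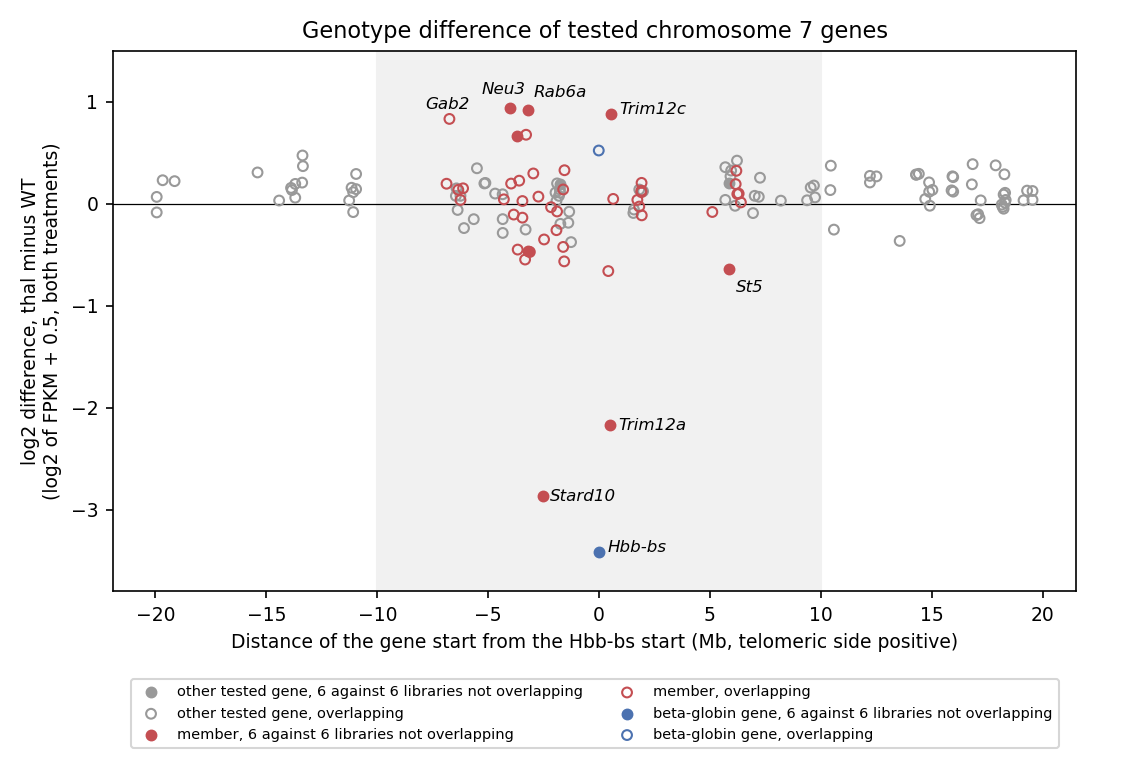
Difference in level between β-thalassemic and WT libraries (y axis, log2 of FPKM + 0.5, averaged over PBS and apoTf) for each tested chromosome 7 gene within 20 Mb, against the distance of its start from the Hbb-bs start (x axis, Mb). Filled points are genes whose 6 β-thalassemic and 6 WT libraries did not overlap, and the grey band marks 10 Mb on either side. Stard10 at -2.87 and Trim12a at -2.17 lie far below the other genes of the list, and no filled point lies beyond the band.

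Stard10, a lipid transfer protein of the START family, had the widest difference with 0.5 FPKM added to each value. With 0.1 added it stood at -2.90 and Trim12a at -4.14. The gene lies at chr7:101317086-101346626 (GRCm38, plus strand), 2.51 Mb to the centromeric side of Hbb-bs. WT libraries held 254, 140 and 172 FPKM with PBS and 109, 129 and 88.8 FPKM with apoTf. β-thalassemic libraries held 15.2, 15.5 and 25.8 FPKM with PBS and 22.2, 16.2 and 19.9 FPKM with apoTf. The lowest WT library was thus above the highest β-thalassemic library by a wide margin. The means were 149 ± 58.9 FPKM in WT and 19.1 ± 4.28 FPKM in β-thalassemic libraries (SD, n = 6 each), a ratio of 7.78. The log2 difference was -2.87 over both treatments, -3.29 in PBS mice, -2.45 in apoTf mice and -2.75 without WT replicate 1 given PBS. Arap1, a GTPase-activating protein for Arf whose gene begins 1441 bases after Stard10 ends, overlapped between genotypes, at 0.906 to 2.16 FPKM in β-thalassemic and 1.41 to 3.13 FPKM in WT libraries. So did Atg16l2, a homologue of the autophagy protein ATG16L1 on the other side of Stard10, which stayed at 0.109 to 0.304 FPKM in all libraries.

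**Figure D2:**
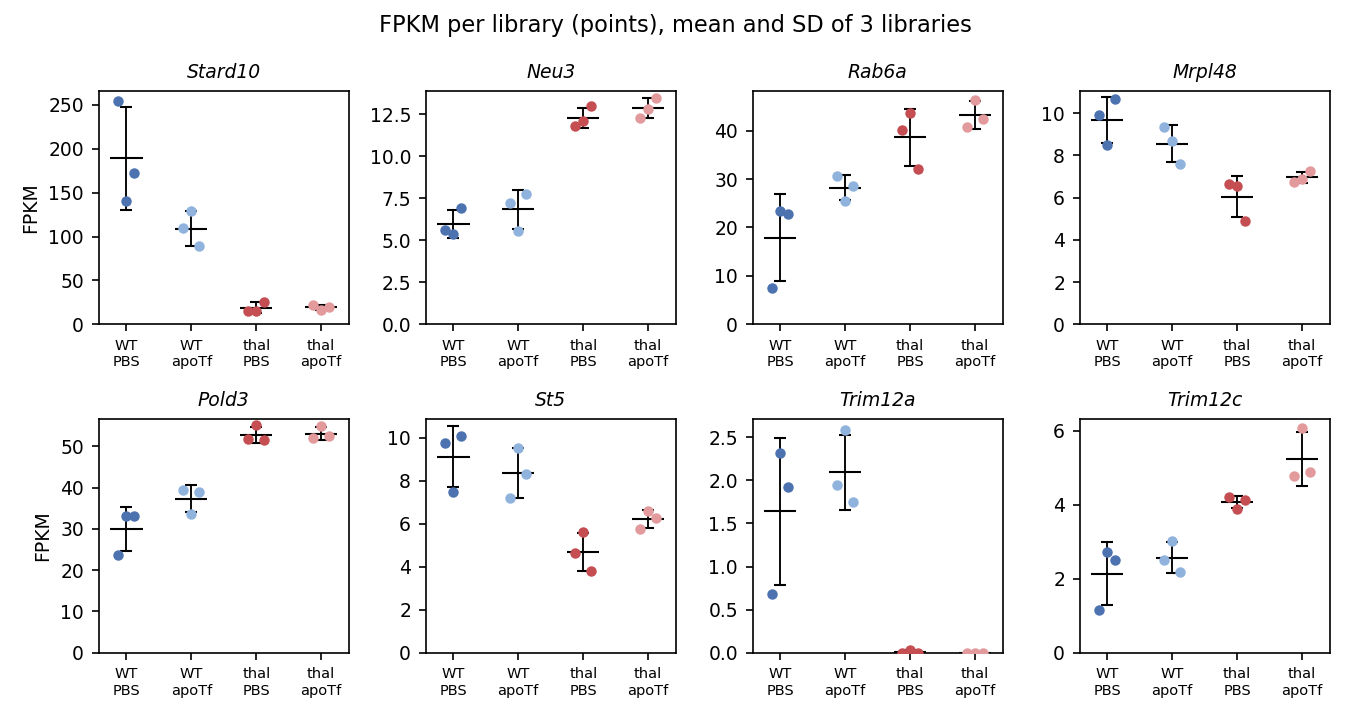
FPKM (y axis) in every library of the 8 genes whose genotypes did not overlap, by genotype and treatment (x axis), with the mean and SD of the 3 libraries of each group as black bars. In Neu3 and Pold3 the β-thalassemic libraries lie close together above all WT libraries, and in Rab6a WT replicate 1 given PBS lies far below the other WT libraries at 7.49 FPKM.

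Tripartite motif (TRIM) genes form a dense cluster on the telomeric side of the globin genes, and many proteins of this family act as ubiquitin ligases in antiviral defence. Trim12a (chr7:104299894-104315466, minus strand) was listed at 0 in 5 of 6 β-thalassemic libraries and at 0.03 FPKM in the sixth, PBS replicate 2, a level close to that of 1 read per kilobase. In WT libraries it was at 0.684, 2.32 and 1.92 FPKM with PBS and 1.95, 2.58 and 1.75 FPKM with apoTf. No fold is given against a group at 0. The log2 difference of -2.17 rests on the 0.5 added to each value, and was -4.14 with 0.1 and -1.47 with 1.

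Trim12c (chr7:104338754-104353362, minus strand), the next TRIM gene 23288 bases away, went the other way. Its level was 1.17, 2.74 and 2.52 FPKM in WT given PBS and 2.5, 3.01 and 2.18 FPKM in WT given apoTf. It was 4.21, 3.89 and 4.14 FPKM in β-thalassemic given PBS and 4.77, 6.08 and 4.88 FPKM in β-thalassemic given apoTf. The means were 2.35 ± 0.643 and 4.66 ± 0.791 FPKM (SD, n = 6 each), a ratio of 1.98, and the log2 difference was 0.88, or 0.73 without WT replicate 1 given PBS. Added together, Trim12a and Trim12c held 3.93 to 5.59 FPKM in the 5 other WT libraries, with a mean of 4.69 ± 0.641 FPKM (SD, n = 5). In the 6 β-thalassemic libraries they held 3.92 to 6.08 FPKM, with a mean of 4.66 ± 0.785 FPKM (SD, n = 6). The sums overlapped, and WT replicate 1 given PBS lay below both ranges at 1.85 FPKM. With that library the WT mean of the sums was 4.22 ± 1.29 FPKM (SD, n = 6). FPKM is scaled to the exon length of each gene, so such a sum is not a total of reads. Of the transcript windows of 50 bases, 3.96% of those of Trim12a were also found in Trim12c and 6.38% of those of Trim12c in Trim12a. A read that lies wholly in such a window cannot be placed uniquely, and how reads of this pair would align from other alleles was not tested.

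**Figure D3:**
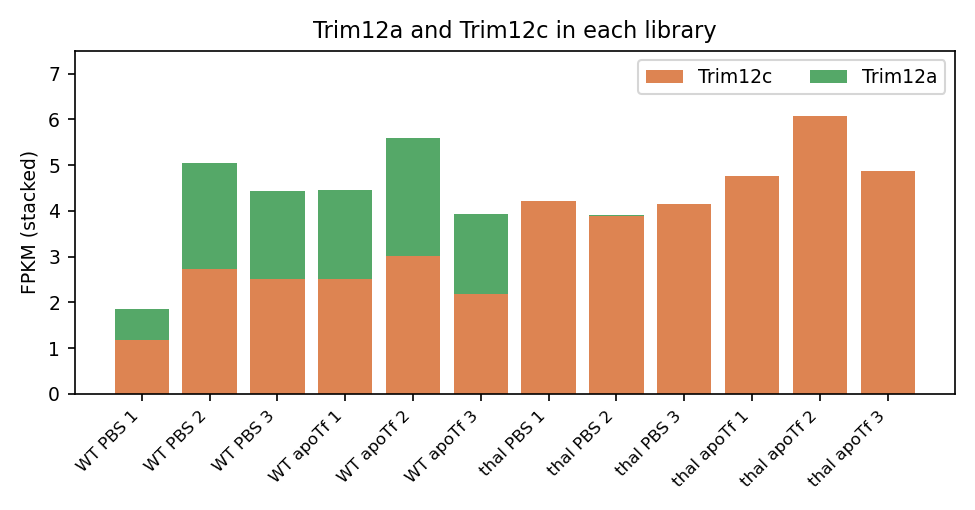
FPKM of Trim12c and Trim12a stacked (y axis) in each of the 12 libraries (x axis, thal for β-thalassemic). The upper, Trim12a part is present in all 6 WT bars and at most 0.03 FPKM in the β-thalassemic bars, while the whole heights overlap apart from WT replicate 1 given PBS at 1.85 FPKM.

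The other TRIM genes of the list were lowly expressed. Trim34a stood at 0.435 to 0.885 FPKM in β-thalassemic libraries and 0.461 to 1.9 FPKM in WT libraries, a log2 difference of -0.66. The ranges separated only without WT replicate 1 given PBS, whose level was 0.461 FPKM against 0.991 to 1.9 in the other 5. Of its 50-base windows 39.8% also occur in Trim34b, so its level is uncertain. Trim30a, which interferon induces in mouse cells, overlapped fully at 1.43 to 3.75 FPKM in β-thalassemic and 0.977 to 3.48 FPKM in WT libraries. Trim30d, below the limit for testing, was at 0 to 0.007 FPKM in β-thalassemic and 0.016 to 0.192 FPKM in WT libraries, without overlap. Its β-thalassemic values were near those of single reads. Trim68, a ubiquitin ligase on the centromeric side, was below the limit too, at 0.514 to 0.729 FPKM in β-thalassemic against 0.225 to 0.46 FPKM in WT libraries, without overlap. The TRIM genes thus lay in both directions. The 10 interferon response genes summed to 31.9 to 52.8 FPKM in β-thalassemic and 29.0 to 50.5 FPKM in WT libraries, which overlapped, and none of the 10 was separated between genotypes.

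Among genes of lipid handling and membrane traffic, 2 of 10 tested genes were higher in all β-thalassemic libraries (0.218% of all genes) and 1 was lower (0.155% of all). Without WT replicate 1 given PBS, 2 were higher (0.29% of all) and 2 lower (0.642% of all). Neu3 (chr7:99811439-99828417, minus strand) encodes a plasma membrane sialidase that removes sialic acid from gangliosides. It stood at 5.61, 5.35 and 6.9 FPKM in WT given PBS and 7.2, 5.54 and 7.77 FPKM in WT given apoTf. In β-thalassemic libraries it stood at 11.8, 12.1 and 13 FPKM with PBS and 12.3, 12.8 and 13.5 FPKM with apoTf. The β-thalassemic values lay within a narrow range above all WT values. The means were 12.6 ± 0.624 and 6.39 ± 1.02 FPKM (SD, n = 6 each), a ratio of 1.97 and a log2 difference of 0.93, or 0.92 without WT replicate 1 given PBS.

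Rab6a and Mrpl48 are neighbours on opposite strands whose starts are 891 bases apart. Rab6a (chr7:100607410-100641268, plus strand), a small GTPase of Golgi transport, was at 7.49, 23.4 and 22.7 FPKM in WT given PBS and 30.6, 25.4 and 28.6 FPKM in WT given apoTf. It was at 40.1, 43.5 and 32.1 FPKM in β-thalassemic given PBS and 40.8, 46.3 and 42.3 FPKM in β-thalassemic given apoTf. The groups did not overlap, and the log2 difference of 0.92 became 0.66 without WT replicate 1 given PBS, by far the lowest library. Mrpl48 (chr7:100545751-100608301, minus strand), a protein of the large mitochondrial ribosomal subunit, went the other way, at 9.9, 8.51 and 10.7 FPKM in WT given PBS and 9.35, 8.69 and 7.61 FPKM in WT given apoTf. It was at 6.66, 6.55 and 4.91 FPKM in β-thalassemic given PBS and 6.75, 6.87 and 7.25 FPKM in β-thalassemic given apoTf. Its log2 difference was -0.46, or -0.45 without that library. The annotated exons of the pair share 403 bases, 11.7% of Rab6a and 8.58% of Mrpl48, and reads in these count for both genes.

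Pold3 (chr7:100082111-100121565, minus strand), a subunit of the replicative DNA polymerase delta, was the only separated gene among the 13 tested genes of the nucleus and gene expression (0.373% of all genes). It stood at 23.8, 33 and 33.1 FPKM in WT given PBS and 39.5, 33.5 and 38.9 FPKM in WT given apoTf. It stood at 51.7, 55 and 51.4 FPKM in β-thalassemic given PBS and 52, 54.8 and 52.4 FPKM in β-thalassemic given apoTf. The β-thalassemic libraries lay close together, with a mean of 52.9 ± 1.6 FPKM against 33.6 ± 5.66 FPKM in WT (SD, n = 6 each). The log2 difference was 0.66, or 0.59 without WT replicate 1 given PBS. Its fellow genes of this group overlapped between genotypes, except that Rnf169 was separated in the lower direction without that library (0.642% of all genes). Nup98, a nuclear pore protein, had medians of 32.4 FPKM in β-thalassemic and 31.6 FPKM in WT libraries. For Eif3f, a translation initiation factor subunit, these were 108 and 116 FPKM. For Ipo7, a nuclear import receptor, they were 76 and 70.9 FPKM, and for Taf10, a subunit of TFIID, 34.5 and 31.2 FPKM. Taf10 shares 1533 exon bases with Ilk, an integrin-linked kinase on the opposite strand, which amounts to 81.7% of the exon bases of Ilk, so neither level is sure.

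St5 (chr7:109523911-109703605, minus strand), a DENN domain protein, was the only separated gene among the 12 tested genes of signalling and cytoskeleton (0.373% of all genes). Of the separated genes of the list it lay farthest from Hbb-bs, at 5.88 Mb on the telomeric side. It was at 9.77, 7.5 and 10.1 FPKM in WT given PBS and 7.22, 9.53 and 8.34 FPKM in WT given apoTf. It was at 4.64, 5.61 and 3.81 FPKM in β-thalassemic given PBS and 5.78, 6.6 and 6.29 FPKM in β-thalassemic given apoTf. The gap between the genotypes was narrow, from 6.6 to 7.22 FPKM, and the log2 difference was -0.64, or -0.62 without WT replicate 1 given PBS. Akip1, its neighbour and not a gene of the list, was separated the other way, at 18.8 to 19.9 FPKM in β-thalassemic and 13 to 18.4 FPKM in WT libraries.

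Several genes of this group overlapped in spite of sizeable differences. Rhog, a small GTPase (chr7:102239123-102256054), had a median of 13.3 FPKM in β-thalassemic and 17.8 FPKM in WT libraries and a log2 difference of -0.57, or -0.43 without WT replicate 1 given PBS. Stim1, the calcium sensor of the endoplasmic reticulum, was at 11 to 13.1 FPKM in β-thalassemic and 8.14 to 11.8 FPKM in WT libraries, and Relt, a TNF receptor family member, at 7.82 to 8.98 against 5.46 to 9.67 FPKM. Both separated without WT replicate 1 given PBS, and so did C2cd3 in the lower direction (0.933% of all genes in either direction). Inppl1, the inositol phosphatase SHIP2, stayed below the limit for testing, yet its 0.607 to 1.01 FPKM in β-thalassemic libraries did not overlap the 0.238 to 0.568 FPKM in WT libraries. Plekhb1 was just under the limit, since the level that 3 libraries reached was 0.99 FPKM, and overlapped at 0.7 to 1.46 against 0.358 to 0.768 FPKM. Fchsd2 and Lipt2, where that level was 1.41 and 1.53 FPKM, were just over it. Arrb1, β-arrestin 1 and the most abundant of the group, and Numa1, a spindle pole protein, overlapped, with medians of 56.8 and 31 FPKM in β-thalassemic and 55.4 and 30.5 FPKM in WT libraries.

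Of the 6 mitochondrial genes, all tested, 4 were lower on average in β-thalassemic libraries, beside 3554 of all 9650 genes. Without WT replicate 1 given PBS the same 4 were lower, beside 5713 of all 9650 genes. Only Mrpl48 was separated, both with that library (0.373% of all genes) and without it (0.933% of all). Ucp2, an uncoupling protein of the inner membrane, was the most abundant gene of the list. It was at 110 to 181 FPKM with a median of 139 in β-thalassemic and 164 to 292 FPKM with a median of 187 in WT libraries, a log2 difference of -0.55, or -0.46 without WT replicate 1 given PBS. WT replicate 1 given PBS, with the highest Ucp2 (292 FPKM) and Rhog (35.4 FPKM), held 2.32 FPKM of the neutrophil and monocyte markers. WT replicate 2 given apoTf, with the most of these markers at 48 FPKM, held 191 FPKM of Ucp2. WT replicate 3 given PBS was high in all of these, with 37.6 FPKM of the markers, 224 FPKM of Ucp2 and 23.5 FPKM of Rhog. The part of such cells in these differences was not tested. Coa4, a cytochrome c oxidase assembly factor, stood at 4.03 to 6.88 FPKM in β-thalassemic against 1.96 to 4.17 FPKM in WT libraries, a log2 difference of 0.68, or 0.60 without that library. Lipt2, a lipoyl transferase, was at 0.617 to 1.1 against 0.532 to 1.91 FPKM. Clpb, the mitochondrial disaggregase, and Nars2, an asparaginyl-tRNA synthetase, had log2 differences of -0.03 and 0.20, which were -0.02 and 0.04 without that library.

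Of the remaining genes, Fam168a and Pgap2 stood lower in β-thalassemic libraries, with log2 differences of -0.47 and -0.42, and separated only without WT replicate 1 given PBS. Pgap2, which remodels the lipid of GPI anchors, shares 22.4% of its exon bases with a second annotated gene on its strand. Lamtor1, the anchor of the Ragulator complex on lysosomes, Tpp1, a lysosomal peptidase, and Smpd1, the acid sphingomyelinase, overlapped, with log2 differences of -0.26, -0.11 and 0.04, which were -0.20, -0.20 and 0.02 without that library. Arhgef17, Map6, Serpinh1, Gdpd5 and Apbb1 stayed at or below 0.055 FPKM in all libraries, and P2ry2, Xrra1 and Atg16l2 reached 0.138, 0.14 and 0.273 FPKM in 3 libraries.

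Position along the chromosome was then described for all tested genes, whether on the list or not. Leaving out the globin genes, 3 of 31 genes under 2 Mb from Hbb-bs did not overlap between genotypes, 5 of 24 at 2 to 5 Mb and 2 of 37 at 5 to 10 Mb. Farther out these were 0 of 57 at 10 to 20 Mb, 1 of 220 at 20 to 40 Mb and 0 of 319 beyond 40 Mb. On all other chromosomes 23 of 8893 genes (0.259%) did not overlap, with 0 to 0.679% on each of 20 chromosomes. Without WT replicate 1 given PBS, the counts by distance were 7 of 31, 9 of 24 and 2 of 37. Farther out they were 0 of 57, 2 of 220 and 0 of 319. On all other chromosomes 68 of 8893 genes (0.765%) did not overlap without it, with 0 to 1.6% on each. With all 12 libraries, the separated genes near Hbb-bs ran from Neu3, 4.0 Mb to the centromeric side, to St5 and Akip1, 5.88 Mb to the telomeric side. The gene at 20 to 40 Mb was Ifitm3, at 37.18 Mb. All 5 genes at 2 to 5 Mb were on the centromeric side, since no tested gene lay at that distance on the other. Medians of the absolute log2 difference were taken with all 12 libraries and with the globin genes left in (33 genes under 2 Mb). They were 0.14 under 2 Mb, 0.27 at 2 to 5 Mb and 0.15 at 5 to 10 Mb. Farther out they were 0.14 at 10 to 20 Mb and 0.11 on other chromosomes. Within 10 Mb, 2 of the tested genes that are neither on the list nor globins were separated, Akip1 and Xndc1, the latter at 10.2 to 11.3 FPKM in β-thalassemic and 9.05 to 10.1 FPKM in WT libraries. Without WT replicate 1 given PBS, Rrm1 was separated too, in the lower direction.

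**Figure D4:**
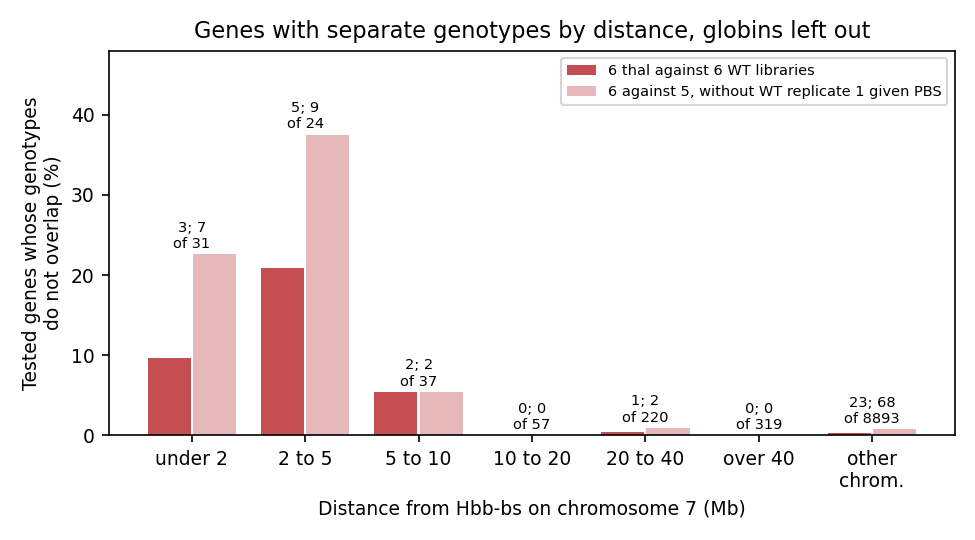
Share of tested genes whose genotypes did not overlap (y axis, percent), by distance from Hbb-bs on chromosome 7 (x axis, Mb) and for all other chromosomes, globin genes left out. Dark bars use all 12 libraries and light bars leave out WT replicate 1 given PBS, and the numbers give both counts and the genes tested. The highest bars are at 2 to 5 Mb, where 5 of 24 genes (9 of 24 without that library) were separated, and bars beyond 10 Mb are at or near 0.

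The farthest genes of the list were Nars2, 6.88 Mb away on the centromeric side, and Swap70, a signalling protein bound to Rac, 6.39 Mb away on the telomeric side. Both overlapped, with log2 differences of 0.20 and 0.01, which were 0.04 and -0.03 without WT replicate 1 given PBS. The tested genes just past 10 Mb, Prcp and Ddias on the centromeric side and Copb1 and Psma1 on the telomeric side, had log2 differences of 0.14, 0.29, 0.13 and 0.37, and all 4 were lowest in WT replicate 1 given PBS. Without that library these were -0.10, -0.003, -0.11 and 0.04. Nearest to Hbb-bs on the list were Trim34a, Trim12a and Trim12c at 0.42, 0.49 and 0.53 Mb on the telomeric side and Trim68, Stim1 and Rhog at 1.14, 1.56 and 1.57 Mb on the centromeric side.

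Gab2, a docking protein downstream of cytokine receptors, had the smallest p among the 47 genes for a response to apoTf, which was tested by limma across all 9650 genes. Its gene (chr7:97081586-97308946, plus strand) lies 6.75 Mb from Hbb-bs. In β-thalassemic libraries Gab2 was at 2.65, 3.61 and 2.96 FPKM with PBS and at 1.59, 1 and 1 FPKM with apoTf, without overlap. In WT libraries it was at 0.628, 0.716 and 1.58 FPKM with PBS and at 1.09, 0.867 and 0.577 FPKM with apoTf, where the groups overlapped. The log2 difference with apoTf in β-thalassemic mice was -1.08 (SE 0.25), which did not pass the threshold after Benjamini-Hochberg adjustment over all genes (limma adjusted p = 0.656). In WT it was -0.10 (95% interval -0.64 to 0.45). The difference between the genotypes in the response was -0.99 (95% interval -1.76 to -0.21, limma adjusted p = 0.764). Between genotypes Gab2 differed by 1.33 in PBS mice and by 0.34 in apoTf mice. The β-thalassemic PBS libraries enter both that PBS difference and the response to apoTf.

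None of the 47 genes passed an adjusted p of 0.05 by limma for apoTf in β-thalassemic mice, for apoTf in WT mice or for the difference between these responses, beside 3 of 9650 genes (0.0311%), 0 and 0. At an unadjusted limma p under 0.05 there were 2 of the 47 in each comparison, beside 1.43%, 10.2% and 4.9% of all genes. With apoTf, 6 of the 47 did not overlap between treatments in β-thalassemic libraries (9.65% of all genes) and 4 in WT libraries (10.9% of all). Data of this size were simulated for apoTf in β-thalassemic mice only, with 200 genes changed and noise independent between genes. In these the same test recovered 62% of the genes changed by 1 on the log2 scale. It recovered 94% of those changed by 2. The adjustment is stricter where fewer genes change, and only 3 genes passed in β-thalassemic mice. These shares can thus overstate what the test could find here, and smaller responses would often be missed. The median log2 difference with apoTf was 0.02 over the 47 genes in β-thalassemic mice, beside 0.03 over all genes, and 0.11 in WT, beside 0.10 over all genes.

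Other responses to apoTf did not pass after adjustment over genes, although some intervals before adjustment left out 0. Stard10 differed by -0.77 in WT (SE 0.26, limma adjusted p = 0.41), where WT replicate 1 given PBS was the highest library. Under other processing choices, among them leaving out each library, this WT value ran from -0.96 to -0.53. In β-thalassemic mice Stard10 differed by 0.08 (95% interval -0.49 to 0.64), and the difference between the 2 responses was 0.84 (limma adjusted p = 0.764). Rab6a differed by 0.80 in WT (95% interval 0.07 to 1.53, limma adjusted p = 0.41), where WT replicate 1 given PBS was the low library, and by 0.17 in β-thalassemic mice. Pold3 differed by 0.32 in WT (SE 0.15), where WT replicate 1 given PBS was again the lowest library. Arfip2, which binds Arf and Rac GTPases at the Golgi, differed by -0.35 in WT (SE 0.17). Each had a limma adjusted p of 0.41. In β-thalassemic mice St5 differed by 0.39 (95% interval 0.01 to 0.76), Trim30a by 0.51 (SE 0.32) and Trim12c by 0.32 (95% interval -0.18 to 0.82), each with a limma adjusted p of 1. For Neu3 the 95% interval reached from -0.27 to 0.39 with a limma adjusted p of 1 in β-thalassemic mice. In WT mice it reached from -0.15 to 0.51 with a limma adjusted p of 0.457. The size of the genotype difference of the separated genes, whose sign is fixed by how they were picked, is given for each treatment. In PBS mice and in apoTf mice the log2 difference was 0.99 and 0.88 for Neu3, 0.82 and 0.51 for Pold3, 1.24 and 0.61 for Rab6a and 0.85 and 0.91 for Trim12c. It was -0.64 and -0.28 for Mrpl48 and -0.90 and -0.39 for St5. The PBS values include WT replicate 1 given PBS, the lowest WT library for Pold3, Rab6a and Trim12c. The PBS differences of these genes are thus wider than they would be without it. Averaged over both treatments without that library, their differences were 0.59, 0.66 and 0.73. Within PBS mice 12 of the 47 genes did not overlap between genotypes (6.92% of all genes) and within apoTf mice 21 (11.6% of all).

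**Figure D5:**
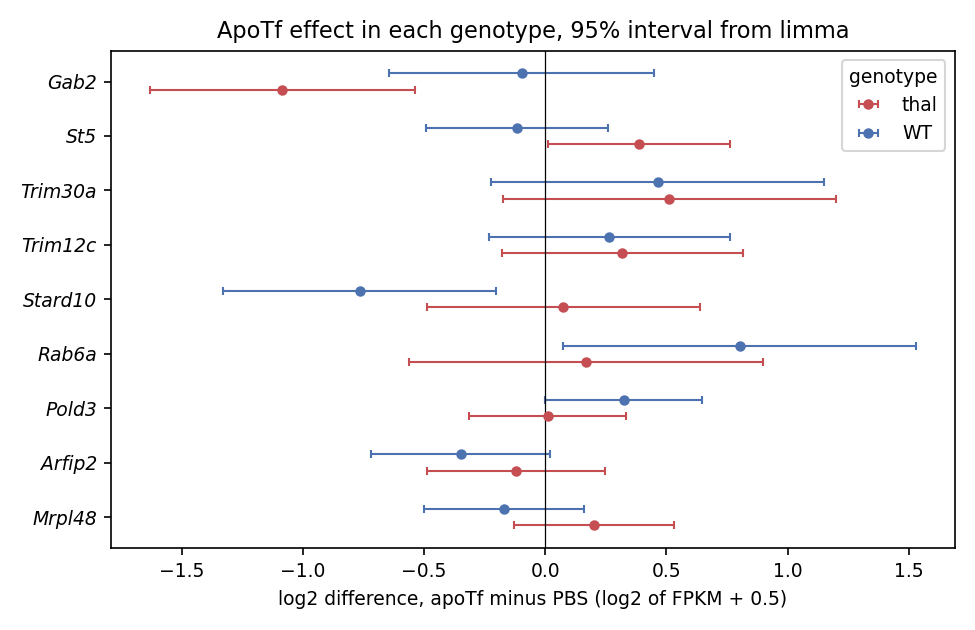
Difference with apoTf (x axis, log2 of FPKM + 0.5, apoTf minus PBS) in β-thalassemic and WT mice for the genes of the list with the smallest p in any apoTf comparison (y axis). Points are limma estimates and bars 95% intervals before adjustment over genes. The β-thalassemic point of Gab2 at -1.08 lies farthest from 0, and no gene passed after adjustment.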

How the data were processed

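Pro-E libraries were grouped by their titles. Per the labels and methods, STAR was run against mm10 with unique alignments kept, and HOMER counted exons on both strands; edgeR and featureCounts are also listed, and versions are not given in the sources used here. The deposited values are FPKM, normalized by the authors and rounded to 3 decimals. Deposited columns of log2 fold changes and adjusted p-values, and a sheet of group averages, were not used.

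Positions came from GENCODE M21 (GRCm38, 24078 of 24453 genes placed). Genes with at least 1 FPKM in 3 libraries were tested by limma 3.58.1 (R 4.3.3; lmFit, eBayes with trend) on log2(FPKM + 0.5), two-sided, with 4 group means over all 12 libraries and Benjamini-Hochberg adjustment over 9650 genes at 0.05; the script was tested on simulated data. A fold on this scale understates the change of low genes. Total reads were worked out from short RNAs whose FPKM steps correspond to single reads, 85.7% to 96.2% of the 263 to 336 values per library being whole within 0.05 read; gene counts were not recovered, and counts are not used.

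Members and lists were chosen with earlier results of these data known. Named were the 20 members with the largest genotype difference, the 3 nearest to Hbb-bs on each side, the 4 with the smallest p in each apoTf comparison, those at the distance and FPKM limits, up to 4 of each role group by level, and the globin genes. Genotype values were described and not tested. Alternatives were pseudocounts of 0.1 and 1, no filter and a filter at 5 FPKM, other scalings, fits of only the groups compared, a replicate block, and leaving out each library. Tools were Python 3.11.15, pandas 2.3.3, numpy 2.4.6, scipy 1.17.1 and Biopython 1.88.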

Additional observations from a re-analysis of the deposited data

How the results depend on the processing

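The count of genes of the list past the threshold stayed at 0 in all 3 apoTf comparisons under all 21 alternatives. Over all genes, the count for apoTf in β-thalassemic mice was 3, and 7 without the filter, 5 with only the groups compared, 1 with a replicate block and 1 to 6 on leaving out a library (6 without WT replicate 1 given PBS, 1 without β-thalassemic replicate 2 given PBS or β-thalassemic replicate 2 or 3 given apoTf). For apoTf in WT it was 0, and 1 without the filter and 0 to 449 on leaving out a library (449 without WT replicate 2 given PBS, 3 without WT replicate 3 given apoTf). For the difference between the responses it was 0, and 1 without the filter and 0 to 1 on leaving out a library (1 without β-thalassemic replicate 2 given PBS). The cause was not tested.

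The genes of the list that did not overlap between genotypes numbered 8 and, on leaving out a library, 8 to 15, 15 being without WT replicate 1 given PBS; in PBS mice 12 and 12 to 20 (19, 20 and 19 without WT replicate 1, 2 or 3), and in apoTf mice 21 and 21 to 27. A smaller group can only overlap less, so leaving out a library can only raise these counts. They were 11, 17 and 18 with median-ratio scaling and 11, 16 and 20 with quantile normalization. Apart from 0.933% of all genes beside the 15, shares over all genes under these alternatives are not given. Nothing about the list is therefore read from these changes. With a pseudocount of 0.1 the order of the differences changed: Trim12a (-4.14, and -1.47 with a pseudocount of 1) lay below Stard10 (-2.90), and Gab2 (1.06) and Trim12c (1.00) above Neu3 (0.98). The 20 widest genotype differences and the apoTf differences with the smallest p, 32 results in all, kept their sign under every alternative run for them. For Inppl1, Plekhb1 and Trim68 only 1 alternative was run, that without the filter, which leaves their values unchanged. The 32 were picked by size or p in these same data, which favours a kept sign. Smaller genotype differences such as that of Swap70 did not keep theirs (0.01, and -0.03 without WT replicate 1 given PBS).

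Of 18 pairs of same-numbered libraries, 6 had a correlation of deviations over 0.1, over a range of -0.39 to 0.51, and 6 of 12 libraries were most like a library of their own number. All 3 pairs between WT and β-thalassemic libraries given apoTf were over 0.1 (0.51, 0.25 and 0.46), and no other pair of groups had this for every number. The replicate block, over all 4 groups, changed no apoTf call of the list. With the block, the genes of the list that did not overlap between genotypes numbered 8, and 16 in PBS mice and 17 in apoTf mice. Shares over all genes with the block are not given, so nothing is read from these counts.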
